A study of Mus musculus with 14 samples.

Results

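The 38 genes described here encode the ionotropic and metabotropic glutamate receptors of the hippocampus, the auxiliary subunits that travel with them and the scaffold proteins that hold them at the postsynaptic density. They were taken by symbol from a list of 38 members, and all 38 were found among the 36118 genes of the deposited table. The members are 4 AMPA receptor subunits, 6 NMDA receptor subunits, 5 kainate receptor subunits, 1 delta receptor, 6 metabotropic receptors, 4 transmembrane AMPA receptor regulatory proteins (TARPs), 6 other auxiliary subunits and 6 scaffolds. Hippocampal polyA RNA was sequenced from 14 C57/BL6 mice at postnatal day 15, with 1 library per mouse. Newborn wild-type mice (WT) and their homozygous GSDMD knockout littermates (KO) had been kept in room air (RA) or in hyperoxia (85% O2) from day 1 to day 14, which gave 4 WT libraries in each exposure (WT-RA and WT-O2) and 3 KO libraries in each (KO-RA and KO-O2). The KO allele is a small CRISPR deletion in a Gsdmd exon and is carried by the whole animal.

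Glutamate released at excitatory synapses opens AMPA receptors, which carry the fast current, and NMDA receptors, which let calcium in when the membrane is already depolarized and so start synaptic plasticity. Kainate receptors tune release and excitability, and metabotropic receptors signal through G proteins, those of group I mainly at the postsynaptic side and those of groups II and III mainly as brakes on release. TARPs, cornichons and Shisa proteins set where AMPA receptors go and how fast they close, Neto proteins do the same for kainate receptors, and PSD-95, Shank and Homer proteins tie the receptors to the cytoskeleton and to intracellular calcium stores. In the developing hippocampus the subunits are exchanged during the first postnatal weeks, the shift of NMDA receptors from Grin2b towards Grin2a being the textbook case.

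Libraries held between 27272270 and 28257496 estimated counts. All 38 members passed the filter on low counts, with 95 to 25076 counts per library, and are given in CPM, the count per library scaled to a common total with edgeR's TMM factors. Gsdmd itself had 41 to 51 counts in WT-RA and 51 to 63 in WT-O2 mice, and 22 to 42 in KO-RA and 36 to 40 in KO-O2 mice, so that it was still counted in KO mice, and a count per gene does not show whether the transcript carries the deletion. The library used here as WT-O2 replicate 4 is given as hyperoxia by its title and by its column in the table, and as room air by its treatment field. Where a member's call ended without it, the value without it is given beside the call. WT and KO mice come from separate runs of mouse numbers, and an effect of that cannot be told apart from genotype. A gene was called different when its log2 fold change was at least 0.32 in size, its p below 0.05 and its q below 0.1 in edgeR's two-sided quasi-likelihood test. Here q stands for p after Benjamini-Hochberg adjustment across 16637 tested genes.

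Levels of the members spanned a wide range in the WT-RA hippocampus. Scaled to the length of the longest annotated transcript, Cnih2, which encodes a cornichon that slows the closing of AMPA receptors, was highest at 343 ± 11 CPM per kb (mean ± SD, n = 4). It was followed by Grin1, the obligatory NMDA receptor subunit, at 139 ± 14 CPM per kb, then by Dlg4, which encodes PSD-95, at 110 ± 11 CPM per kb, and by Gria1 at 95.6 ± 9.4 CPM per kb. The ranges of mean ± SD of Dlg4 and Gria1 overlapped. At the low end stood Grm8 at 2.56 ± 0.73 and Grik1 at 6.0 ± 0.47 CPM per kb. Among the AMPA receptor subunits the order was Gria1, Gria2 at 48.2 ± 3.6, Gria3 at 31.1 ± 2.9 and Gria4 at 19.2 ± 2.0 CPM per kb, with gaps larger than the SDs. These SDs are the spread between mice and do not cover the choice of transcript length. The lengths used for Gria1 and Gria2 were 5546 and 10371 bases. Without the scaling, Gria1 at 530.0 ± 52.0 CPM and Gria2 at 499.9 ± 37.8 CPM lay within their SDs of each other.

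More members were called between genotypes than between exposures. In room air 15 of the 38 members (39.5%) were called between KO and WT, 7 higher and 8 lower in KO, where 10.4% of all tested genes were called (3.75% higher and 6.7% lower). In hyperoxia 17 of 38 (44.7%) were called, 9 higher and 8 lower, where 6.86% of all genes were called (2.51% higher and 4.35% lower). The members and the further lists below were chosen with earlier results of these data known, so these shares are no test of the gene family. Of 61 tested genes in the further lists of glutamate signalling, 14 were called in room air and 17 in hyperoxia. The room air and hyperoxia comparisons use different mice and 1 shared estimate of the spread, and 14 members were called in both, each in the same direction. The share of all tested genes called in both was not computed, so this count has no background beside it. The median log2 fold change of the 38 members was 0.01 in room air and 0.04 in hyperoxia, against -0.01 in both for all tested genes. Libraries of the 2 genotypes did not overlap for 14 members in room air and 21 in hyperoxia, and for 19.6% and 19% of all tested genes. In bulk tissue, fewer cells of a type and less RNA per cell cannot be told apart.

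**Figure D1:**
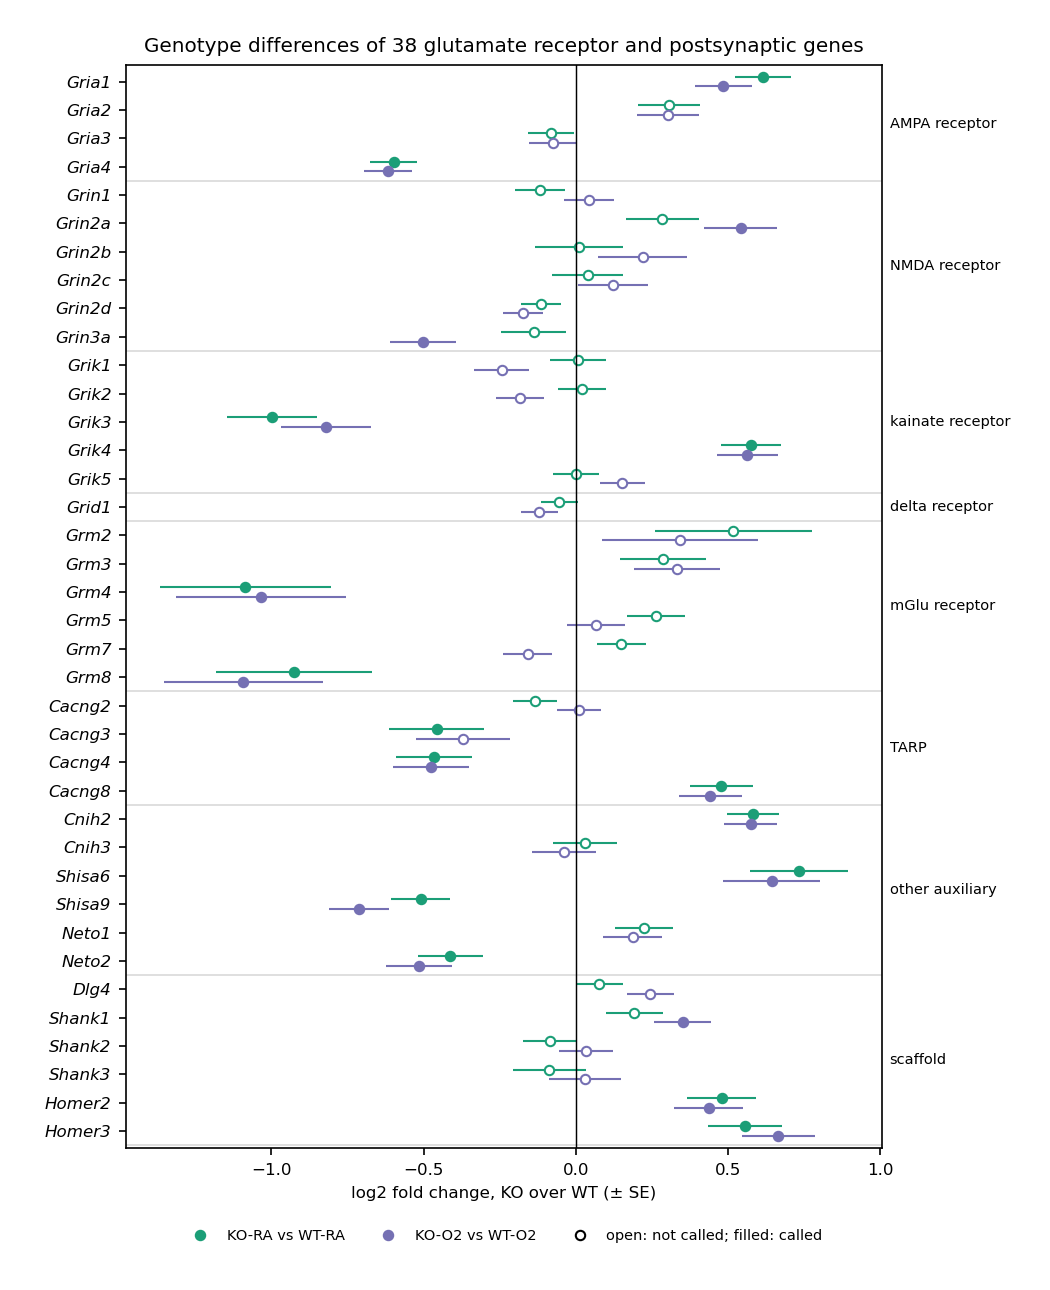
Log2 fold change of KO over WT for each of the 38 members, grouped by class, in room air (green) and in hyperoxia (purple). Bars are standard errors from edgeR, filled points were called and open points were not. Within most classes, called members lie on both sides of 0, from -1.09 (Grm8, hyperoxia) to 0.73 (Shisa6, room air).

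AMPA receptor subunits split by gene. Gria1, whose protein GluA1 forms the channels inserted during long-term potentiation, was higher in KO. In room air it measured 552, 592, 474 and 503 CPM in WT and 925, 754 and 755 CPM in KO mice. In hyperoxia it measured 641, 645, 649 and 561 CPM in WT and 803, 920 and 897 CPM in KO mice. Every KO library lay above every WT library, with a log2 fold change of 0.61 ± 0.09 (SE, edgeR q = 0.00102) in room air and 0.48 ± 0.09 (edgeR q = 0.00666) in hyperoxia. Gria4, whose protein GluA4 gives fast channels typical of interneurons and of early development, was lower in KO. Its level was 114, 98.3, 91.9 and 114 CPM in WT-RA and 68.5, 67.3 and 71.2 CPM in KO-RA libraries. It was 100.2, 98.5, 95.7 and 111 CPM in WT-O2 and 64.5, 68.3 and 65.6 CPM in KO-O2 libraries. Here every KO library lay below every WT library, with log2 fold changes of -0.60 ± 0.08 (edgeR q = 0.000346) and -0.62 ± 0.08 (edgeR q = 0.000584). Gria2, which makes AMPA receptors impermeable to calcium, had log2 fold changes of 0.31 ± 0.10 (edgeR q = 0.0731) and 0.30 ± 0.10 (edgeR q = 0.104), both under the fold threshold, and was not called. Gria3 was not called either, at -0.08 ± 0.08 in both exposures. As a ratio of levels per length, Gria1 stood at 4.35 to 5.90 times Gria4 in WT-RA, 4.95 to 6.65 in WT-O2, 10.4 to 13.3 in KO-RA and 12.2 to 13.4 in KO-O2 libraries.

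Because these 2 subunits moved in opposite directions, the coding stretch they have most nearly in common is printed here, with the longest run of identical bases between their GENCODE M21 transcripts in capitals and 20 bases on each side in lower case. The run of 35 bases lies in exon 14 of 16 of Gria1 at chr11:57309815-57309849 on the plus strand and in exon 15 of 17 of Gria4 at chr9:4432807-4432841 on the minus strand (GRCm38), in coding sequence near the end of the ligand-binding domain. Of the flanking bases, 5 of 20 before and 4 of 20 after the run differ.
Gria1: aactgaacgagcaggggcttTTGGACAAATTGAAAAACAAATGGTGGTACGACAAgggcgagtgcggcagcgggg
Gria4: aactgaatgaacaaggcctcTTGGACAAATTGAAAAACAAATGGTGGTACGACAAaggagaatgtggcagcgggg
Of all 31-base stretches of the annotated transcripts, 0.282% of those of Gria1 and 0.975% of those of Gria4 occurred in a transcript of any other gene.

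Of the 6 NMDA receptor subunits, Grin2a and Grin3a were called, both in hyperoxia. Grin1 was not called in either exposure, at -0.12 ± 0.08 in room air and 0.04 ± 0.08 in hyperoxia. Grin2a, the subunit of mature synaptic receptors with fast decay, was called in hyperoxia, where it measured 225, 195, 207 and 168 CPM in WT and 256, 309 and 303 CPM in KO mice. In room air its values of 212, 239, 242 and 197 CPM in WT and 324, 234 and 255 CPM in KO mice overlapped. The log2 fold change was 0.54 ± 0.12 (edgeR q = 0.0147) in hyperoxia and 0.28 ± 0.12 (edgeR q = 0.161) in room air, and the difference between both was not called (0.26 ± 0.17, unadjusted p = 0.152 in edgeR's test of the interaction). Grin3a, which lowers the calcium permeability of NMDA receptors and restrains spine maturation, was lower in KO in hyperoxia, with 115, 130, 103 and 98.7 CPM in WT and 75.9, 88.7 and 72.3 CPM in KO mice. In room air it measured 72.4, 96.0, 86.9 and 94.2 CPM in WT and 80.5, 80.6 and 77.1 CPM in KO mice. No library overlapped in hyperoxia (-0.50 ± 0.11, edgeR q = 0.0127), whereas in room air the WT range enclosed the KO range (-0.14 ± 0.11, edgeR q = 0.496). Grin2b, Grin2c and Grin2d, which give slower or regionally restricted receptors, were not called, with log2 fold changes between -0.17 and 0.22. Of the Grin2a stretches, 12.1% also occurred in other genes, 11.9% in Gm7328, which had 0 to 114 counts per library.

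Kainate receptors repeated the split of the AMPA receptors between 2 subunits. Grik4, a high-affinity subunit known for its expression in CA3 pyramidal cells, was higher in KO. It measured 50.1, 43.0, 40.5 and 40.1 CPM in WT-RA and 74.9, 62.2 and 57.0 CPM in KO-RA libraries. In WT-O2 it was 49.8, 48.2, 43.3 and 49.6 CPM, and in KO-O2 63.9, 71.4 and 76.3 CPM. The genotypes did not overlap, with log2 fold changes of 0.58 ± 0.10 (edgeR q = 0.00253) in room air and 0.56 ± 0.10 (edgeR q = 0.00411) in hyperoxia. Grik3, a low-affinity subunit found at presynaptic sites, was lower in KO. Its values in room air were 88.1, 127, 148 and 120.1 CPM in WT and 51.4, 64.5 and 65.6 CPM in KO mice. In hyperoxia they were 110 in replicate 1, 100.3, 99.2 and 112 CPM in the other WT mice and 59.7, 68.8 and 50.5 CPM in KO mice. All KO values lay below all WT values, with log2 fold changes of -0.997 ± 0.15 (edgeR q = 0.000872) and -0.82 ± 0.15 (edgeR q = 0.0045). Grik4 stood at 0.418 to 0.867 times Grik3 per length in WT-RA, 0.666 to 0.732 in WT-O2, 1.32 to 2.22 in KO-RA and 1.58 to 2.30 in KO-O2 libraries, so that the ratio was higher in every KO library. Which gene of the pair stands higher in KO depends on the length scaling. In CPM, Grik4 lay below Grik3 in KO-RA replicates 2 (62.2 against 64.5) and 3 (57.0 against 65.6). Grik1, Grik2 and Grik5 were not called between genotypes, with log2 fold changes from -0.24 to 0.15.

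The run most nearly shared by Grik4 and Grik3 has 29 bases and lies in a membrane-spanning stretch that lines the pore of these channels. It is found in exon 17 of 21 of Grik4 at chr9:42543876-42543904 on the minus strand and in exon 13 of 16 of Grik3 at chr4:125694033-125694061 on the plus strand (GRCm38), with 7 of 20 bases before and 2 of 20 after it differing.
Grik4: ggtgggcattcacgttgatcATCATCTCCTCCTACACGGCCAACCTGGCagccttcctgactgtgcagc
Grik3: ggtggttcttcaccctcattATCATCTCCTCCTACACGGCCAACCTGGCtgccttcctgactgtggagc
Any other gene held 0.981% of the 31-base stretches of Grik4 and 1.17% of those of Grik3.

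Metabotropic receptors were called only among group III, the presynaptic receptors that lower release through inhibitory G proteins. Grm4 measured 78.6, 44.9, 33.6 and 32.2 CPM in WT-RA and 17.4, 24.8 and 24.7 CPM in KO-RA libraries. Under hyperoxia the values were 37.3, 39.4, 49.1 and 62.3 CPM in WT and 26.6, 23.4 and 18.9 CPM in KO mice. The genotypes did not overlap, although the WT values spread widely, and the log2 fold changes were -1.08 ± 0.28 (edgeR q = 0.0236) and -1.03 ± 0.28 (edgeR q = 0.0431). Grm4 was no longer called in hyperoxia without WT-O2 replicate 4 (-0.86), KO-O2 replicate 2 (-1.05) or KO-O2 replicate 3 (-0.91), nor in room air without KO-RA replicate 1 (-0.93). Grm8, the lowest member, measured 7.16, 13.1, 15.0 and 13.8 CPM in WT-RA and 4.79, 6.93 and 7.65 CPM in KO-RA libraries. It was 11.7, 12.9, 10.3 and 9.99 CPM in WT-O2 and 7.27, 4.92 and 3.56 CPM in KO-O2 libraries. WT-RA replicate 1 fell among the KO-RA values and the other WT libraries lay above all KO libraries, with log2 fold changes of -0.93 ± 0.26 (edgeR q = 0.0332) and -1.09 ± 0.26 (edgeR q = 0.0224). Its calls ended without KO-RA replicate 1 (-0.75) in room air and without KO-O2 replicate 3 (-0.88) in hyperoxia. Grm7, the third member of group III here, was not called, at 0.15 ± 0.08 and -0.16 ± 0.08. The group II receptors Grm2 and Grm3 had log2 fold changes between 0.29 and 0.52, and Grm5, the group I receptor that couples to Homer, had 0.26 ± 0.10 and 0.07 ± 0.10, and none of these was called. The delta receptor Grid1, which binds cerebellins, was not called, at -0.05 ± 0.06 and -0.12 ± 0.06.

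**Figure D2:**
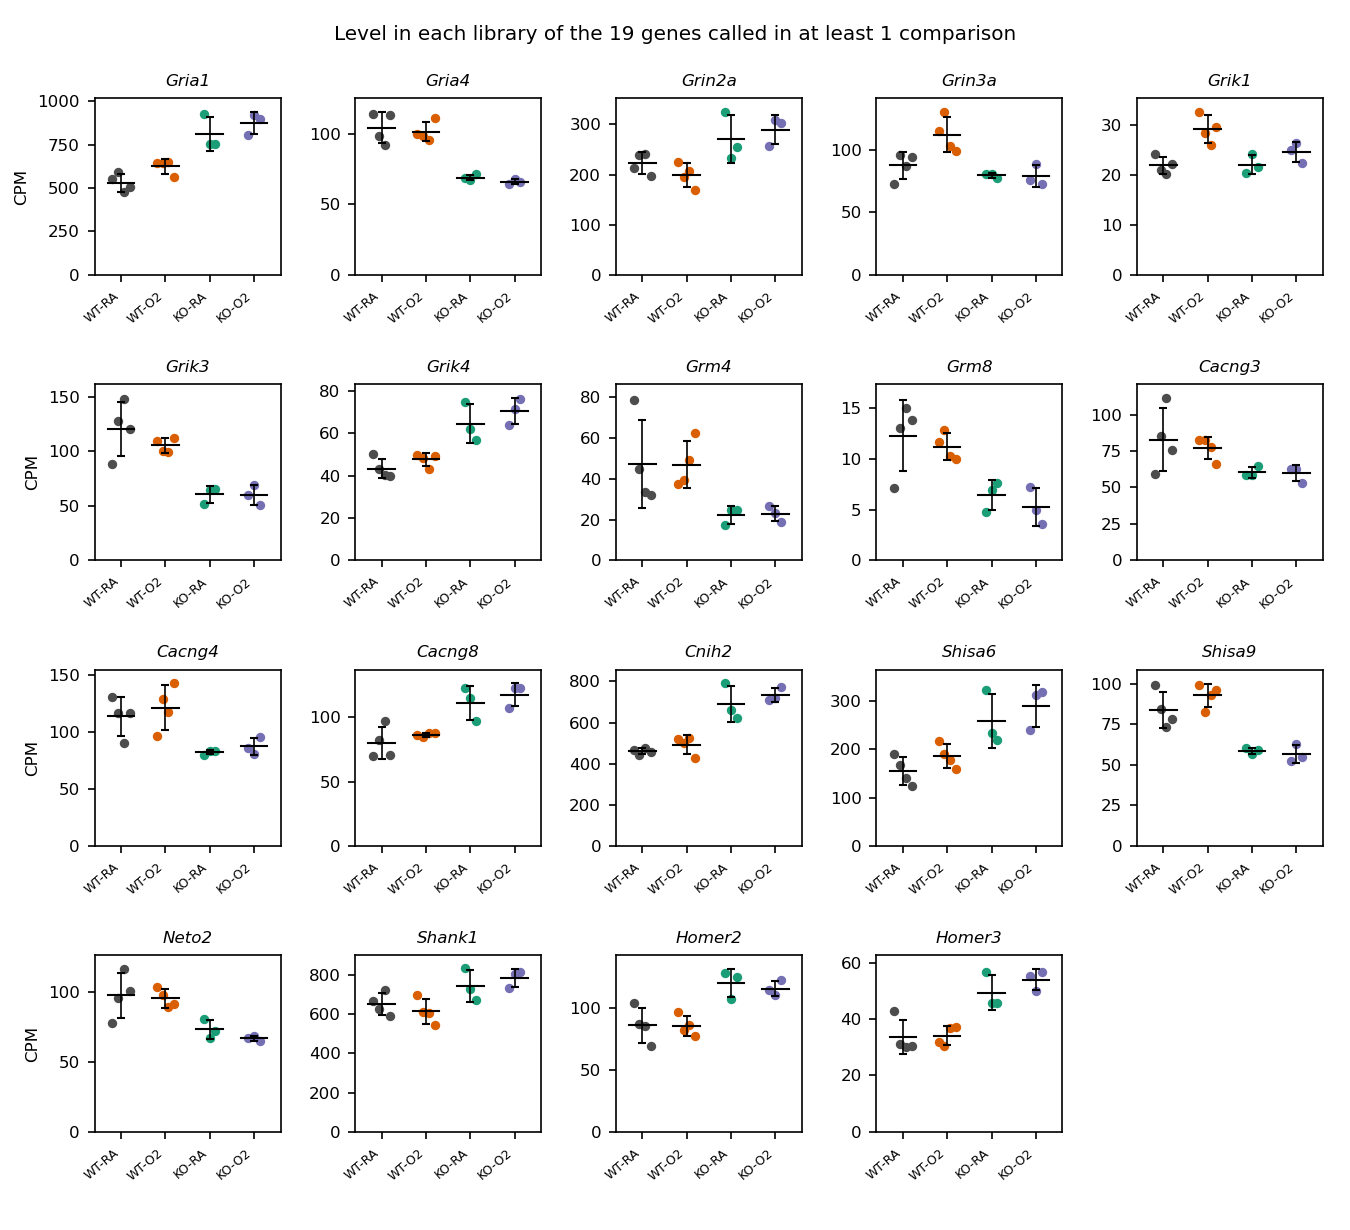
CPM of the 19 members called in at least 1 comparison, with 1 point per library, a horizontal line at the group mean and an error bar of 1 SD. Gria1, Grik4, Cacng8, Cnih2, Shisa6, Homer2 and Homer3 stand higher in both KO groups, and Gria4, Grik3, Grm4, Grm8, Cacng4, Shisa9 and Neto2 stand lower.

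Of the TARPs, which bind AMPA receptors and carry them to PSD-95, Cacng8 encodes γ-8, the one most abundant in the hippocampus. It measured 69.9, 82.2, 96.9 and 70.9 CPM in WT-RA and 122, 115 and 96.8 CPM in KO-RA libraries. Hyperoxia gave 86.1, 84.6, 88.0 and 87.4 CPM in WT and 107, 122 and 123 CPM in KO mice. The highest WT-RA value passed the lowest KO-RA value by a narrow margin and the groups in hyperoxia did not overlap, with log2 fold changes of 0.48 ± 0.10 (edgeR q = 0.00935) and 0.44 ± 0.10 (edgeR q = 0.021). Without KO-O2 replicate 3 its value in hyperoxia was 0.41 and was not called. Cacng4, which encodes γ-4, was lower in KO, with 131, 117, 90.7 and 117 CPM in WT-RA and 80.3, 83.4 and 83.5 CPM in KO-RA libraries. In hyperoxia its values were 96.8, 129, 117 and 143 CPM in WT and 86.4, 80.4 and 95.4 CPM in KO mice. The groups did not overlap, but WT-RA replicate 3 and WT-O2 replicate 1 came close to the KO range, and the log2 fold changes were -0.47 ± 0.13 (edgeR q = 0.0298) and -0.48 ± 0.13 (edgeR q = 0.0387). Cacng4 was not called in hyperoxia without WT-O2 replicate 4 (-0.38), KO-O2 replicate 1 (-0.47) or KO-O2 replicate 2 (-0.42), nor in room air without KO-RA replicate 1 (-0.45). Cacng3, which encodes γ-3, was called in room air alone, with 59.1, 85.6, 111 and 75.4 CPM in WT and 58.2, 58.3 and 64.4 CPM in KO mice. With hyperoxia there were 82.4, 82.3, 77.5 and 66.4 CPM in WT and 62.8, 63.0 and 53.3 CPM in KO mice. WT-RA replicate 1 lay within the KO-RA range, and the log2 fold changes were -0.46 ± 0.15 (edgeR q = 0.0789) and -0.37 ± 0.15 (edgeR q = 0.204), with an interaction of 0.09 ± 0.22 that was not called (edgeR q = 1). The call in room air ended without any of 6 libraries (WT-RA replicates 2 and 3, WT-O2 replicate 3 and each KO-RA replicate), at values from -0.49 to -0.28, the smallest without WT-RA replicate 3. Cacng2, which encodes stargazin, was not called, at -0.13 ± 0.07 and 0.01 ± 0.07.

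Of the other auxiliary subunits, 2 were higher and 2 lower in KO in both exposures. Shisa6, whose protein CKAMP52 keeps AMPA receptors at the synapse and from desensitizing, measured 190.0 in replicate 1 and 169, 141 and 124 CPM in the other WT-RA libraries, and 322, 234 and 220.0 CPM in KO-RA libraries. In hyperoxia it measured 218, 189.9, 177 and 159.9 CPM in WT and 241, 312 and 319 CPM in KO mice. No KO value fell to a WT value of the same exposure, with log2 fold changes of 0.73 ± 0.16 (edgeR q = 0.00957) and 0.64 ± 0.16 (edgeR q = 0.0288). The call in hyperoxia ended without KO-O2 replicate 2 (0.59) or 3 (0.57). Its relative Shisa9, whose protein CKAMP44 promotes desensitization, was lower in KO, with 99.1, 84.4, 73.0 and 78.3 CPM in WT-RA and 60.6, 56.9 and 58.9 CPM in KO-RA libraries. Under hyperoxia the values were 99.4, 82.4, 93.3 and 95.9 CPM in WT and 52.4, 62.7 and 54.8 CPM in KO mice. All KO values were below all WT values, with log2 fold changes of -0.51 ± 0.10 (edgeR q = 0.00445) and -0.71 ± 0.10 (edgeR q = 0.00104). Cnih2 measured 467, 443, 478 and 455 CPM in WT-RA and 791, 659.9 and 620.5 CPM in KO-RA libraries. Hyperoxia gave 519, 499, 525 and 427 CPM in WT and 709, 717 and 771 CPM in KO mice. Its lowest KO library stood well above its highest WT library, with log2 fold changes of 0.58 ± 0.09 (edgeR q = 0.000849) and 0.57 ± 0.09 (edgeR q = 0.00157). Cnih3, the second cornichon, was not called, at 0.03 ± 0.10 and -0.04 ± 0.10. Neto2, which slows the desensitization of kainate receptors, measured 77.8, 95.9, 117 and 101.0 CPM in WT-RA and 81.0, 67.4 and 72.3 CPM in KO-RA libraries. With hyperoxia there were 104, 98.3, 89.1 and 91.4 CPM in WT and 67.0, 68.8 and 65.1 CPM in KO mice. WT-RA replicate 1 overlapped the KO-RA range and the groups in hyperoxia were apart, with log2 fold changes of -0.41 ± 0.11 (edgeR q = 0.0249) and -0.51 ± 0.11 (edgeR q = 0.0107). In room air Neto2 was not called without WT-RA replicate 3 (-0.31) or KO-RA replicate 2 (-0.35). Neto1, which binds both kainate and NMDA receptors, was not called, at 0.22 ± 0.10 and 0.19 ± 0.10.

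Of the 6 scaffold members, Homer2 and Homer3 were called in both exposures, Shank1 in hyperoxia, and Dlg4, Shank2 and Shank3 in neither. Homer proteins link group I metabotropic receptors to Shank and to calcium stores. Homer2 measured 104, 87.3, 85.4 and 69.2 CPM in WT-RA and 129, 107 and 125 CPM in KO-RA libraries. In hyperoxia it measured 97.2, 82.6, 86.2 and 77.5 CPM in WT and 115, 111 and 123 CPM in KO mice. Groups did not overlap, with log2 fold changes of 0.48 ± 0.11 (edgeR q = 0.0143) and 0.44 ± 0.11 (edgeR q = 0.0344). The call of Homer2 in hyperoxia ended without WT-O2 replicate 4 (0.40) or KO-O2 replicate 3 (0.39). Homer1, which stands in a list of further postsynaptic proteins and not among the members, was not called between genotypes, at -0.10 ± 0.13 (edgeR q = 0.711) and 0.15 ± 0.13 (edgeR q = 0.593). Homer3 measured 42.7, 31.1, 30.1 and 30.4 CPM in WT-RA and 56.6, 45.7 and 45.6 CPM in KO-RA libraries. Under hyperoxia the values were 31.9, 30.5, 36.7 and 37.0 CPM in WT and 55.2, 49.9 and 56.7 CPM in KO mice. WT-RA replicate 1 came nearest to the KO values without reaching them, and the log2 fold changes were 0.56 ± 0.12 (edgeR q = 0.00949) and 0.67 ± 0.12 (edgeR q = 0.00481). A share of 22.8% of the Homer3 stretches also occurred in Ddx49 on either strand, and Ddx49 itself was not called, with log2 fold changes of 0.04 ± 0.09 and -0.08 ± 0.09. Shank1, a master scaffold of large spines, was called in hyperoxia, with 699.8, 612, 608 and 545 CPM in WT and 734, 807 and 817 CPM in KO mice. In room air it measured 669.9, 625, 724 and 594 CPM in WT and 837, 728 and 675 CPM in KO mice. Values were apart in hyperoxia and overlapped in room air, with log2 fold changes of 0.35 ± 0.09 (edgeR q = 0.0426) and 0.19 ± 0.09 (edgeR q = 0.24), and the interaction was not called (0.16 ± 0.13, edgeR q = 1). The call of Shank1 in hyperoxia ended without WT-O2 replicate 4 (0.30), KO-O2 replicate 2 (0.33) or KO-O2 replicate 3 (0.32). Dlg4 had 0.08 ± 0.08 and 0.24 ± 0.08 (edgeR q = 0.0783), under the fold threshold, and Shank2 and Shank3 lay between -0.09 and 0.03.

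Few members were called between hyperoxia and room air in either genotype. In WT mice 1 of 38 members was called (2.63%), where 0.643% of all tested genes were (0.349% higher and 0.295% lower in hyperoxia), and in KO mice none was, where 0.012% of all genes were (0.00601% higher and 0.00601% lower). At an unadjusted p below 0.05 there were 8 members in WT and 1 in KO mice (12.2% and 4.86% of all tested genes). DESeq2 called 2 and 0 members, and its share of all genes is not given here. The called gene was Grik1, a kainate receptor subunit strongly expressed in interneurons. It measured 24.2, 21.1, 20.2 and 22.2 CPM in WT-RA and 32.7, 28.3, 26.1 and 29.6 CPM in WT-O2 libraries. In KO mice it measured 20.4, 24.1 and 21.6 CPM in room air and 25.1, 26.3 and 22.5 CPM in hyperoxia. All WT-O2 values lay above all WT-RA values, while the KO groups overlapped, with log2 fold changes of 0.41 ± 0.09 (edgeR q = 0.0653) in WT and 0.16 ± 0.10 (edgeR q = 0.997) in KO mice. Without WT-O2 replicate 4 the WT value was 0.41 and was no longer called, and leaving out any of 4 other WT libraries (WT-RA replicates 2 and 3, WT-O2 replicates 1 and 2) also ended the call, at values from 0.35 to 0.43. Grin2d (0.22 ± 0.06, edgeR q = 0.151) and Grin3a (0.35 ± 0.10, edgeR q = 0.152) had WT-O2 libraries that all exceeded the WT-RA libraries but missed the q threshold. Libraries of the exposures did not overlap for 4 members in WT and 0 in KO mice, and for 5.99% and 11.8% of all tested genes. Region markers also differed between the exposures in WT mice. Cplx3, of the deep cortical list, and Rorb, of the upper cortical list, were called lower in WT-O2, at -1.40 ± 0.30 (edgeR q = 0.0679) and -0.53 ± 0.12 (edgeR q = 0.094), and summed upper cortical markers were 139 to 233 CPM in WT-RA and 117 to 123 CPM in WT-O2 libraries. The 6 oligodendrocyte markers had a median log2 fold change of -0.66, with sums of 7680 to 19200 CPM in WT-RA and 4810 to 12800 CPM in WT-O2, the 4 dentate markers had a median of 0.57, with sums of 50.2 to 194 and 112 to 206 CPM, and the 4 red cell markers had a median of -0.58, with sums of 274 to 336 and 177 to 243 CPM. None of the genes of these 3 lists was called. In KO mice no marker was called between exposures. The part of these markers in the values of Grik1, Grin2d, Grin3a and the Grin2a to Grin2b ratio was not tested. The median log2 fold change of the 38 members was 0.04 in WT and 0.06 in KO mice, against -0.01 and 0.00 for all genes.

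**Figure D3:**
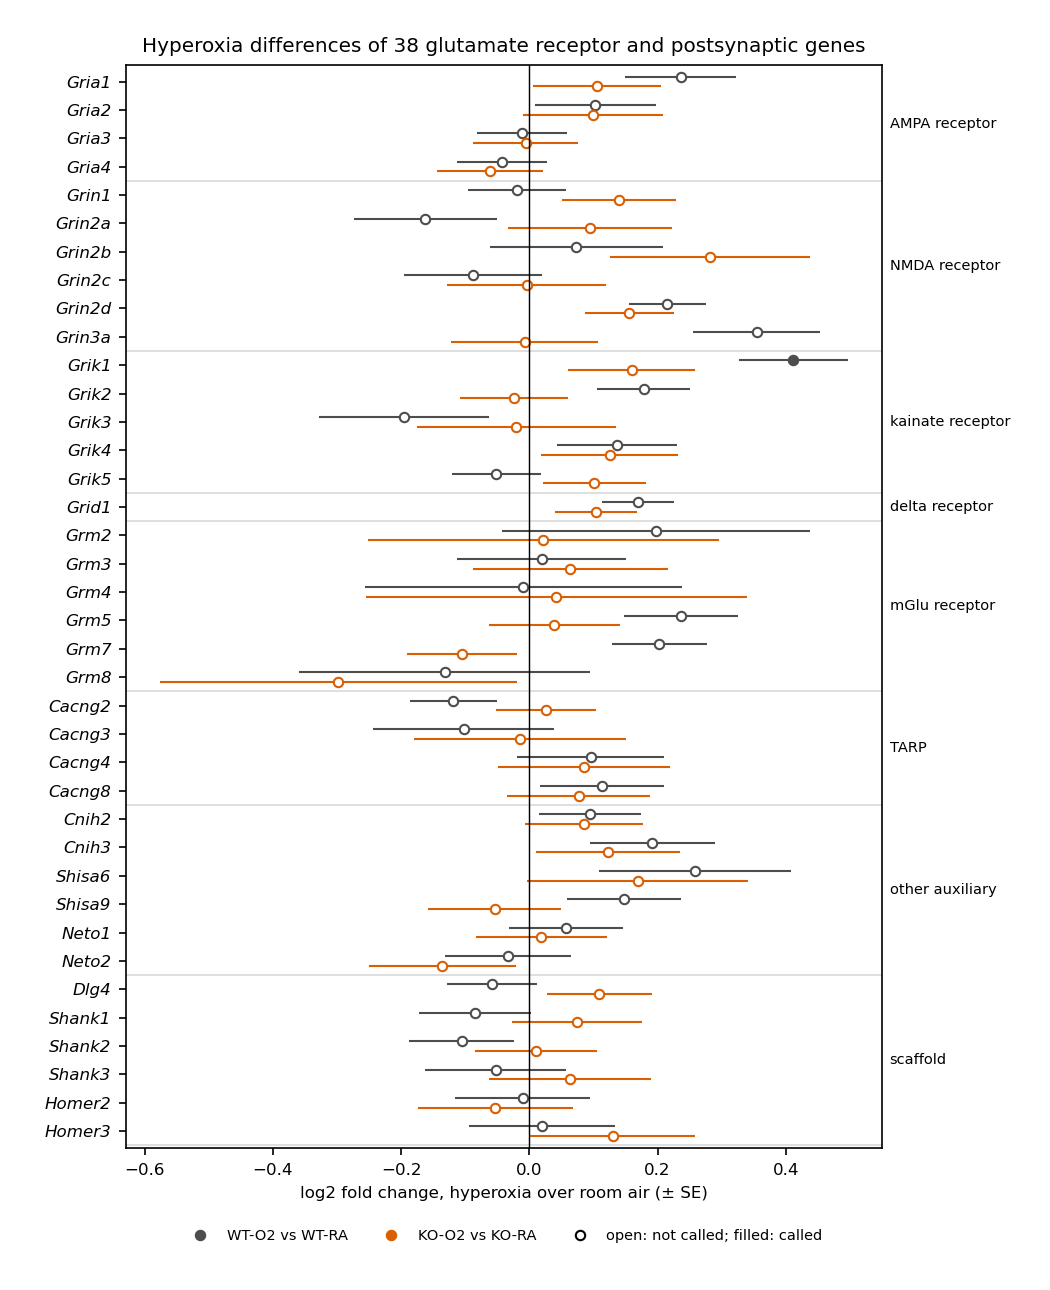
Log2 fold change of hyperoxia over room air for each member in WT (grey) and KO mice (orange), with standard errors from edgeR. The scale is narrower than for genotype, from -0.30 (Grm8 in KO) to 0.41 (Grik1 in WT), and Grik1 in WT is the 1 filled point.

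The difference between both responses, tested as an interaction, was not called for any member or any gene in edgeR (0% of all genes), nor by DESeq2 for any member. At an unadjusted p below 0.05 it held 2 members, against 4.05% of all tested genes. These were Grin3a, at -0.36 ± 0.15 (unadjusted p = 0.0307 in edgeR's test, q = 1), and Grm7, at -0.31 ± 0.11 (unadjusted p = 0.0162, q = 1).

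The ratio of Grin2a to Grin2b, a textbook measure of NMDA receptor maturation, is given as a description with no test, since the pair was chosen after its levels had been seen. Per length, Grin2a stood at 0.806, 0.776, 0.805 and 0.863 times Grin2b in WT-RA and at 0.662, 0.656, 0.761 and 0.678 times in WT-O2 libraries. In KO mice the ratio was 0.971, 0.950 and 1.02 in room air and 0.945, 0.819 and 0.835 in hyperoxia. Within each genotype the hyperoxia libraries lay below all room air libraries, and within each exposure the KO libraries lay above all WT libraries. The mean log2 ratio was lower in hyperoxia by 0.24 in WT and by 0.18 in KO mice, and higher in KO by 0.27 in room air and 0.33 in hyperoxia. With WT-O2 replicate 4 (0.678) taken as room air, the WT exposures overlapped, since it lay below WT-O2 replicate 3 (0.761). The mean difference between exposures was -0.18 with that mapping, in place of -0.21. With any library left out the mean difference ranged from -0.24 to -0.19. Neither Grin2a nor Grin2b was called between exposures.

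Markers of brain regions moved with genotype in the same libraries, and are given beside the members' calls. Of the hippocampal lists, 4 of 4 CA1 markers were called higher in KO in room air and 3 of 4 in hyperoxia, 4 of 4 and 1 of 4 dentate gyrus markers, and 1 of 4 and 2 of 4 CA3 markers. CA3 markers did not all point one way, Cdh24 having log2 fold changes of -0.39 ± 0.15 and -0.10 ± 0.15, and their sum lay between 345 and 399 CPM in WT and between 380.0 and 525 CPM in KO libraries. Summed CA1 markers lay between 206 and 303 CPM in WT and between 356 and 419 CPM in KO libraries. Summed dentate markers lay between 50.2 and 206 CPM in WT and between 230.0 and 330.0 CPM in KO libraries. Lists of neighbouring regions were lower in KO. All 9 striatal markers, such as Drd1 and Penk, were called lower in both exposures, and their sum was 408 to 947 CPM in WT and 160.0 to 268 CPM in KO libraries. Thalamic markers were called lower for 6 of 8 in room air and 5 of 8 in hyperoxia, with sums of 111 to 683 CPM in WT and 92.3 to 118 CPM in KO libraries. Markers of basal forebrain cholinergic neurons were called lower for 4 of 5 and 5 of 5, with sums of 4.49 to 16.5 CPM in WT and 2.06 to 3.56 CPM in KO libraries, and Lhx8 was at 0 in 1 of 3 KO-RA and 2 of 3 KO-O2 libraries.

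Upper cortical layer markers were called lower for 4 of 4 in room air and 2 of 4 in hyperoxia (117 to 233 CPM in WT, 66.3 to 88.1 CPM in KO), and those of deep layers for 4 of 7 and 3 of 7 (229 to 386 CPM in WT, 212 to 233 CPM in KO). Deep layer markers did not all point one way, with 1 of 7 positive in room air and 2 of 7 in hyperoxia. Of 7 GABAergic markers 3 and 2 were called lower (587 to 956 CPM in WT, 650.0 to 713 CPM in KO). Their signs were mixed, with 3 of 7 positive in room air and 2 of 7 in hyperoxia. Sst (0.15 and 0.07) and Vip (0.31 and 0.11) were positive in both and not called. Oligodendrocyte markers were called lower for 6 of 6 and 4 of 6 (4810 to 19200 CPM in WT, 3270 to 5760 CPM in KO). Of 5 astrocyte markers 2 and 1 were called higher (1190 to 1530 CPM in WT, 1620 to 1820 CPM in KO), and of 3 immature neuron markers 2 and 1. Among the astrocyte markers 1 of 5 was negative in room air and 2 of 5 in hyperoxia. The 5 pan-neuronal markers were called in neither exposure and summed to 3990 to 4700 CPM in WT and 4110 to 4610 CPM in KO libraries. Markers of microglia, endothelium, choroid plexus, red cells, cycling cells and cerebellar granule cells were not called either. Choroid plexus sums spread widely within KO, at 36.7, 3260 and 3130 CPM in KO-RA and 1690, 105 and 3380 CPM in KO-O2 libraries. In WT they were 918 to 2400 CPM in room air and 965 to 1470 CPM in hyperoxia. Of 3 oligodendrocyte precursor markers 1 was called lower in room air. The part of these markers in the members' differences was not tested. When the thalamic and striatal sums were added to the model as covariates, 0 members were called in either genotype comparison, and 4 of all tested genes in each. The covariates hold 0.904 of the variance of genotype, so that these markers and genotype can hardly be told apart.

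**Figure D4:**
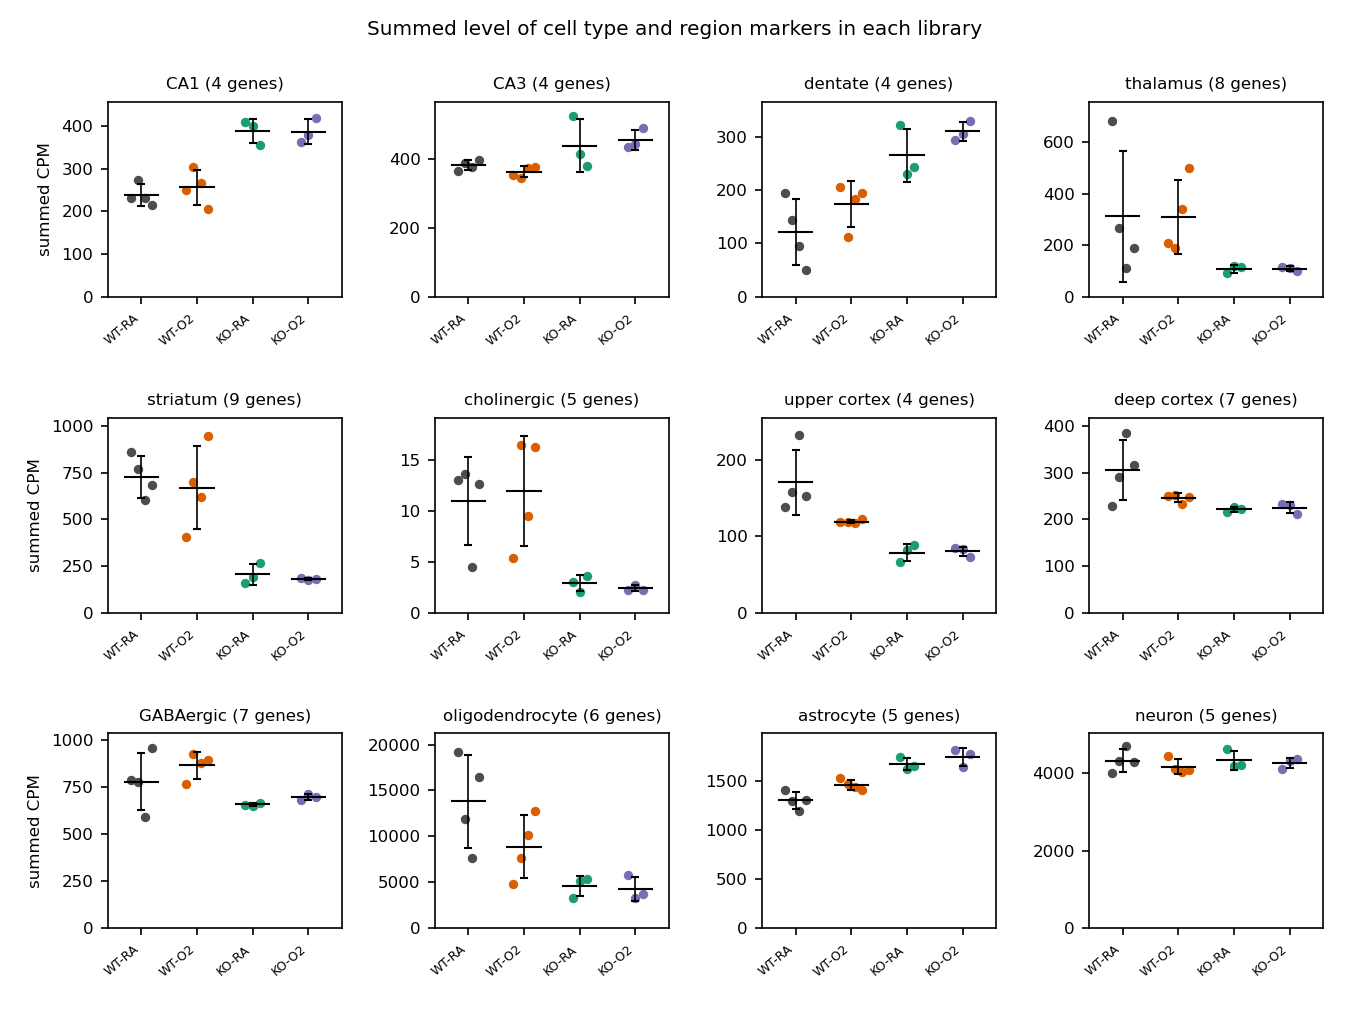
Summed CPM of 12 marker lists, with 1 point per library, a line at the group mean and an error bar of 1 SD. CA1 and dentate gyrus sums are higher in KO libraries, thalamic, striatal, cholinergic and upper cortical sums are lower, and the pan-neuronal sum is alike in range.

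Other genes of glutamate signalling, taken from lists of 26 further receptors and partners, 26 further postsynaptic proteins and 10 genes of glutamate handling, were counted in the same way. Of the further receptors and partners 25 were tested, and 1 was called higher and 6 lower in room air, 2 higher and 5 lower in hyperoxia. Lrrtm2, a postsynaptic adhesion protein that holds AMPA receptors, was lower in room air at -0.36 ± 0.06 (edgeR q = 0.00136). Lrrtm3, its relative, was lower in both exposures, at -0.85 ± 0.19 (edgeR q = 0.00969) and -0.97 ± 0.19 (edgeR q = 0.00699). Gsg1l, an AMPA receptor auxiliary subunit that slows recovery from desensitization, was lower at -0.83 ± 0.20 (edgeR q = 0.0146) and -1.01 ± 0.20 (edgeR q = 0.0075). C1ql2, a synaptic organizer of mossy fibres that also stands in the dentate list, was higher in room air at 1.09 ± 0.24 (edgeR q = 0.0102).

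Of the 26 further postsynaptic proteins 2 were called higher and 3 lower in room air, and 4 higher and 3 lower in hyperoxia. Camk2a, the kinase of long-term potentiation, was higher at 0.63 ± 0.10 (edgeR q = 0.00193) and 0.60 ± 0.10 (edgeR q = 0.00385). Dlgap1, which joins PSD-95 to Shank, was higher at 0.37 ± 0.07 (edgeR q = 0.00485) and 0.41 ± 0.07 (edgeR q = 0.00391). Dlg1, which encodes SAP97, a partner of GluA1, was lower at -0.59 ± 0.09 (edgeR q = 0.0012) and -0.48 ± 0.09 (edgeR q = 0.00618), and Grip2, a partner of GluA2, at -0.79 ± 0.10 (edgeR q = 0.000357) and -0.48 ± 0.10 (edgeR q = 0.0125). In glutamate handling 2 of 10 genes were called higher in room air, and 2 higher and 1 lower in hyperoxia. Slc1a3, the astrocyte transporter GLAST, which also stands in the astrocyte list, was higher at 0.48 ± 0.07 (edgeR q = 0.000694) and 0.41 ± 0.07 (edgeR q = 0.00314). The genes called in hyperoxia alone included Slc1a2, the main astrocyte transporter, at 0.37 ± 0.09 (edgeR q = 0.0298) and Slc17a6, a vesicular transporter that also stands in the thalamic list, at -1.65 ± 0.43 (edgeR q = 0.0362), and Glul, glutamine synthetase, was called in room air, at 0.34 ± 0.08 (edgeR q = 0.0111). The exposure comparisons called none of the genes of these 3 lists in edgeR, with 10 of 61 at an unadjusted p below 0.05 in WT and 1 of 61 in KO mice.

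Promoter sequences were available for 23 of the 38 members from RefSeq (GRCm38.p6). The 250 bases before the transcription start are shown for the 2 members with a single window and the smallest p in room air in each direction, Cnih2 and Grik4 among those higher in KO and Gria4 and Grik3 among those lower, with each GC box (GGGCGG or its reverse complement CCGCCC) in capitals. They lie at chr19:5098522-5098771 (minus strand), chr9:42944372-42944621 (minus), chr9:4796235-4796484 (minus) and chr4:125490446-125490695 (plus).
Cnih2: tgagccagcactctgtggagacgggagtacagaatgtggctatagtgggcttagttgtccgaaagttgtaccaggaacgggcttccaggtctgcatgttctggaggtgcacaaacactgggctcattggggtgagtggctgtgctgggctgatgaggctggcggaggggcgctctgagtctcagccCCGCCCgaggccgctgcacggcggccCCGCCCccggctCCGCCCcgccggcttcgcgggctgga
Grik4: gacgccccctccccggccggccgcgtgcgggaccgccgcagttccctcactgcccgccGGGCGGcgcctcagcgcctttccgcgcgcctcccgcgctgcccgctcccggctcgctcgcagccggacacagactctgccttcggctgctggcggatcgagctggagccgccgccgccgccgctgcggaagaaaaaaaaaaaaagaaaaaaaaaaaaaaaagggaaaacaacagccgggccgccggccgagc
Gria4: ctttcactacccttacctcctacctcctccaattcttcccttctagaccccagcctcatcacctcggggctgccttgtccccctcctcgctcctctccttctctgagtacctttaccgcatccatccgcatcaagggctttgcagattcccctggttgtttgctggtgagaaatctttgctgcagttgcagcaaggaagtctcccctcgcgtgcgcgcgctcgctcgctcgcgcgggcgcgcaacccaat
Grik3: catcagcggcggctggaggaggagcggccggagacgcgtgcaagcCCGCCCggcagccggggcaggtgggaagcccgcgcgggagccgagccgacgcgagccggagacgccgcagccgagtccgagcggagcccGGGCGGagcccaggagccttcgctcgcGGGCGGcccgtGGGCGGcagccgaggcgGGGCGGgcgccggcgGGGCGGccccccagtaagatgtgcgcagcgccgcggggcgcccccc
The windows hold 3, 1, 0 and 6 GC boxes and have a GC content of 65.6%, 69.6%, 58.8% and 82.0%. On either strand the GC box was found in 16 of 30 windows of the members (53.3%), which come from 23 genes. It was found in 32.7% of all 32851 windows, which come from 27025 genes and were not limited to tested genes. Windows of the same gene were counted separately. The GC box stood in 4 of 6 windows (5 genes) of members higher in KO in both exposures and in 3 of 7 windows (4 genes) of those lower. TGACGTCA, the full cyclic AMP response element, was in 0 of 30 windows of the members and in 1.55% of all, CACGTG in 6.67% and 6.02%, and TATAAA in 3.33% and 12.4%. These are matches of letters only.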

How the data were processed

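Hippocampal polyA RNA of 14 mice (4 WT and 3 KO per exposure) was sequenced as paired-end reads. The authors deposited estimated counts per gene, made with kallisto on GRCm39 and summed with tximport as the study's methods state. Tool versions, trimming and the use of strand are not given in the sources used here. Non-whole values made up 40.9% to 43.1% of each library, and all were rounded before testing.

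Counts were tested with edgeR 4.0.16 in R 4.3.3 (filterByExpr, TMM, quasi-likelihood F-test, 1 coefficient per group, all 14 libraries) over 16637 genes, with Benjamini-Hochberg adjustment. The thresholds of 0.32 on the log2 scale, p of 0.05 and q of 0.1 are those of the study's methods, which used DESeq2. Alternatives were DESeq2 1.42.0, scaling by its size factors, scaling by library size alone, no filter or at least 10 counts in every library, the 2 groups compared alone, a 1.5-fold threshold, a q of 0.05, WT-O2 replicate 4 as room air, thalamic and striatal marker sums as covariates, and each library left out. The fit was tested on simulated data. Standard errors are the log2 fold change over the root of F. No 2 libraries of the same group agreed within sampling noise, and pairs from different groups were not examined.

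Members and gene lists were chosen with earlier results of these data known. Per-library values are given for members called in at least 1 of the 5 comparisons, and fold changes for up to 4 called genes of each further list by smallest p. Levels per kb use the longest GENCODE M21 transcript (GRCm38), and shared 31-base stretches were sought on both strands. Ratios of subunits were computed per library (Python 3.11.15). At this depth a member's lowest value was 95 counts. The shares of counting and of the spread between mice in the error were not separated. Homer3 and Grin2a, both called, share 23.1% and 12.1% of their stretches with other genes. Grin1, Grin2d and Grm2 share 10.7%, 8.65% and 8.97%, and the counts of all these genes are less certain.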

Additional observations from a re-analysis of the deposited data

Results flagged for a closer look

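In 6 of 76 groups of 4 WT libraries, 1 library's level of a member stood far from the other 3, with a gap to the nearest of them, as a share of the group's whole range, above Dixon's 95% critical value. Chance alone gives about 1 in 20 groups. WT-O2 replicate 4, the library whose labels disagree, had 560.881 CPM of Gria1, against 641 to 649 CPM in the other WT-O2 libraries and 474 to 592 CPM in WT-RA. WT-RA replicate 1 was apart for 3 members, with the lowest Gria3 (139.287 CPM, others 167 to 172), the lowest Cnih3 (38.404 CPM, others 51.8 to 54.3) and the highest Homer3 (42.695 CPM, others 30.1 to 31.1). It also had the highest thalamic (683 CPM) and oligodendrocyte (19200 CPM) marker sums of all libraries. WT-RA replicate 4 had the lowest Grm2, 17.289 CPM against 42.1 to 46.9 CPM, and the lowest dentate marker sum of its group (50.2 CPM). WT-RA replicate 2 had the highest Grid1, 76.288 CPM against 68.8 to 70.1 CPM. Of these 6 members, Gria1 and Homer3 were called between genotypes, and both calls were kept with any 1 library left out.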

How the results depend on the processing

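Of 38 members, 15 were called between KO and WT in room air and 17 in hyperoxia. With DESeq2, DESeq2's size factors, library size alone, another filter on low counts, the compared groups alone, a q of 0.05 or WT-O2 replicate 4 as room air, these counts ranged from 14 to 16 and from 14 to 19. A fold threshold of 1.5 left 6 and 7. Shares of all tested genes called under these settings, or with 1 library left out, are not given here. The members' loss of calls can therefore not be set against that of all genes. With the thalamic and striatal marker sums as covariates 0 members were called in both, and 5 values changed sign: Cacng4 to 0.26 in room air and 0.26 in hyperoxia, and Grin2a to -0.0514, Shisa6 to -0.0102 and Shank1 to -0.21 in hyperoxia. The sums hold 0.904 of the variance of genotype.

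Leaving out 1 library gave 11 to 15 members in room air and 11 to 19 in hyperoxia. The counts moved most without KO-RA replicate 1 (11 in room air), KO-O2 replicate 3 (11 in hyperoxia), and KO-O2 replicate 2 or WT-O2 replicate 4 (13 each in hyperoxia). The values of the members whose calls ended stand beside each gene, and the cause was not tested.

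For hyperoxia in WT mice the 1 call (Grik1) became 2 with DESeq2 and with the marker covariates, and 0 with the compared groups alone, a fold of 1.5, a q of 0.05 or WT-O2 replicate 4 as room air, and it was 0 to 1 with a library left out. Hyperoxia in KO mice and the interaction gave 0 called members under each alternative run, and 0 with any 1 library left out. The alternatives for the Grin2a to Grin2b ratio were chosen after seeing the data, and its differences kept their sign in each of them. With 3 or 4 mice a group, a difference near the threshold can be missed. No paired analysis was possible because the labels give the groups no shared replicate numbers.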
